A study of Mus musculus with 4 samples.

Results

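The genes described here are C1qa, C1qb, C1qc, C1ra, C2, C3, C4b, Cfb and Cfp, which encode components of the complement system. They were taken as the array probes whose transcript maps to 1 of these 9 symbols. The array carried 11 such probes for all 9 genes, out of 41174 probes in all and 17178 genes with a symbol. C2 and C3 had a pair of probes each, and the other genes had 1. Although the set was assembled around the classical pathway, Cfb and Cfp belong to the alternative pathway, and C3 is shared by all routes. RNA came from the gastric lymph node, which is the left pancreatic node, and from the pancreatico-duodenal lymph node, which is the right one. Both were taken from 4 female NOD mice aged 12 weeks, an inbred strain that develops autoimmune diabetes spontaneously and is known to lack functional complement C5. Gastric node RNA was labelled with Cy5 and pancreatico-duodenal node RNA with Cy3, and both nodes of a mouse were hybridised to 1 two-colour array of that mouse. Each value below is a log2 ratio of gastric over pancreatico-duodenal node unless another quantity is named, so a negative value is a lower level in the gastric node.

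Complement is a cascade of blood and tissue proteins that marks targets for uptake and can lyse them. In the classical pathway C1q, built from the chains of C1qa, C1qb and C1qc, binds antibody or other ligands, and the attached proteases C1r and C1s then cleave C4 and C2. The C4 and C2 fragments form an enzyme that cleaves C3, the step on which the pathways converge. In the alternative pathway factor B (Cfb) supplies the corresponding protease and properdin (Cfp) stabilises the enzyme. Most plasma complement comes from the liver, whereas C1q is made largely by macrophages and dendritic cells.

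Lymph node markers were present in both nodes: Cd3e, Cd79a, Ms4a1, Ccl21a, Ccl19, Cxcl13 and Ptprc were well above background on 4 of 4 arrays in each. Over the 4 arrays the median spot signal ranged between 115 and 155 for the gastric nodes and between 87.3 and 95.9 for the pancreatico-duodenal nodes. Mouse 3 stood apart in exocrine pancreas genes, whose list median was -4.85 there and between -0.28 and 0.85 in the other mice. Precision was limited by there being 4 arrays.

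The 3 C1q chain genes were lower in the gastric node in every mouse, and so were C2, C4b and C1ra. C1qb was 2.05-fold lower, C1qa 1.90-fold, C1qc 1.72-fold, the brighter C2 probe 1.55-fold, C4b 1.46-fold and C1ra 1.33-fold. Without loess, on arrays only centred on their medians, C1ra, C4b and the brighter C2 probe had means just above 0, C1qc did not pass, and the brighter C3 probe, Cfb and Cfp passed as higher. In that setting 16108 of all 27602 probes passed as higher and 2858 as lower. With loess Cfb and Cfp had mean log2 ratios close to 0, and C3 was below 0 in each mouse without passing the test. In all, 7 of 11 probes passed as lower (limma, adjusted p under 0.05) and none as higher. Of all 27602 probes tested, 7.90% passed, 4.91% as lower and 2.99% as higher. All 11 probes were well above background in both nodes on 4 of 4 arrays, and none was saturated.

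The C1q genes lie next to each other on mouse chromosome 4, in the order C1qb, C1qc and C1qa among protein-coding genes of the RefSeq table of GRCm38.p6. The 250 bases before the start of C1qb and C1qc are shown because these genes differed together, and those of Cfp because its mean ratio was near 0 with loess. Capitals mark the only match to AGGAAGT on either strand, which reads ACTTCCT here, the core that the myeloid transcription factor PU.1 prefers.
C1qb, chr4:136886201-136886450, minus strand: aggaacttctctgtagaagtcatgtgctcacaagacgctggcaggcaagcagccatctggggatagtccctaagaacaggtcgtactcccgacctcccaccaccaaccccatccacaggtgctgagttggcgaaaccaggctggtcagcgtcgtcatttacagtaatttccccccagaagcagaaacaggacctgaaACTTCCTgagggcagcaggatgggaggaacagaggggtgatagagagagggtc
C1qc, chr4:136892915-136893164, minus strand: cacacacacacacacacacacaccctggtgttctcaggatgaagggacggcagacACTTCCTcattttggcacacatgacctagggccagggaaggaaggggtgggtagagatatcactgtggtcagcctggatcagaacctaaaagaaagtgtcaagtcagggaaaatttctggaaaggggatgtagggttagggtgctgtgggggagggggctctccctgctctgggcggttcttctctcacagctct
Cfp, chrX:20931556-20931805, minus strand: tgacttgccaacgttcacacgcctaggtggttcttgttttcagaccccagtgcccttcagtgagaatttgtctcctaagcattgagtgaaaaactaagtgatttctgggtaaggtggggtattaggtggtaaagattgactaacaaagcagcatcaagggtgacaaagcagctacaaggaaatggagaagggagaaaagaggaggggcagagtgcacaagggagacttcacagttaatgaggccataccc

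The match begins at -53 before the start of C1qb and at -195 before that of C1qc. Among 32851 promoter windows of the same length, 7.69% hold this core on either strand. The windows of C1ra, C3 and Cfp hold none. Neither a pair of GAAA runs with 2 free bases between them, a form of the interferon-stimulated response element found in 2.98% of windows, nor TGCTGAC, a partial Maf recognition element found in 3.81%, has a match on either strand in the windows of these 5 genes. The motifs were chosen with the sequences in view, no match overlaps another, and a match is a description of the letters only. The sequences are from RefSeq, build GRCm38.p6, and 5 of 9 genes had an entry; C1qa, C2, C4b and Cfb are named only.

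C1qa, which encodes the A chain, had log2 ratios of -0.81, -0.86, -1.26 and -0.78 in mice 1 to 4. Its normalized log2 intensity was 12.33, 12.28, 11.52 and 12.24 in the gastric nodes, against 13.14, 13.14, 12.77 and 13.02 in the pancreatico-duodenal nodes. All gastric node values lay below all pancreatico-duodenal node values, and the gastric node of mouse 3 was the lowest. The mean log2 ratio was -0.93 ± 0.22 (SD, n = 4; limma adjusted p = 0.0200).

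C1qb, the B chain gene, had log2 ratios of -1.07, -0.89, -1.39 and -0.80 in mice 1 to 4. With loess it gave the lowest ratio of the set in mice 1, 2 and 3. Its log2 intensity was 10.89, 10.94, 10.26 and 10.68 in the gastric nodes, against 11.97, 11.83, 11.65 and 11.48 in the pancreatico-duodenal nodes. The nodes again did not overlap. The mean log2 ratio was -1.04 ± 0.26 (SD, n = 4; limma adjusted p = 0.0200).

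C1qc, the C chain gene, had log2 ratios of -0.60, -0.72, -1.15 and -0.65 in mice 1 to 4. On the log2 scale the intensity was 12.66, 12.55, 11.76 and 12.43 in the gastric nodes, against 13.26, 13.27, 12.91 and 13.07 in the pancreatico-duodenal nodes. The mice stood in the same order as for C1qa within each node. The mean log2 ratio was -0.78 ± 0.25 (SD, n = 4; limma adjusted p = 0.0231).

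With loess the chains kept one order in each mouse, with C1qb lowest and C1qc nearest to 0. On the ratio of the scanner software C1qa was slightly below C1qb in mouse 2 (-0.900 against -0.877) and mouse 4 (-0.791 against -0.788). With loess C1qb minus C1qc was -0.26 ± 0.15 and C1qa minus C1qc was -0.15 ± 0.05 on the log2 scale (SD, n = 4). Each difference was below 0 in 4 of 4 mice, and the exact two-sided sign-flip p of 0.125 was the smallest that 4 mice allow (0.136 after adjustment over the 12 differences between members that were computed). Averaged over the chains, the log2 ratio was -0.83, -0.82, -1.27 and -0.74 in mice 1 to 4, with a mean of -0.91 ± 0.24 (SD, n = 4).

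**Figure D1:**
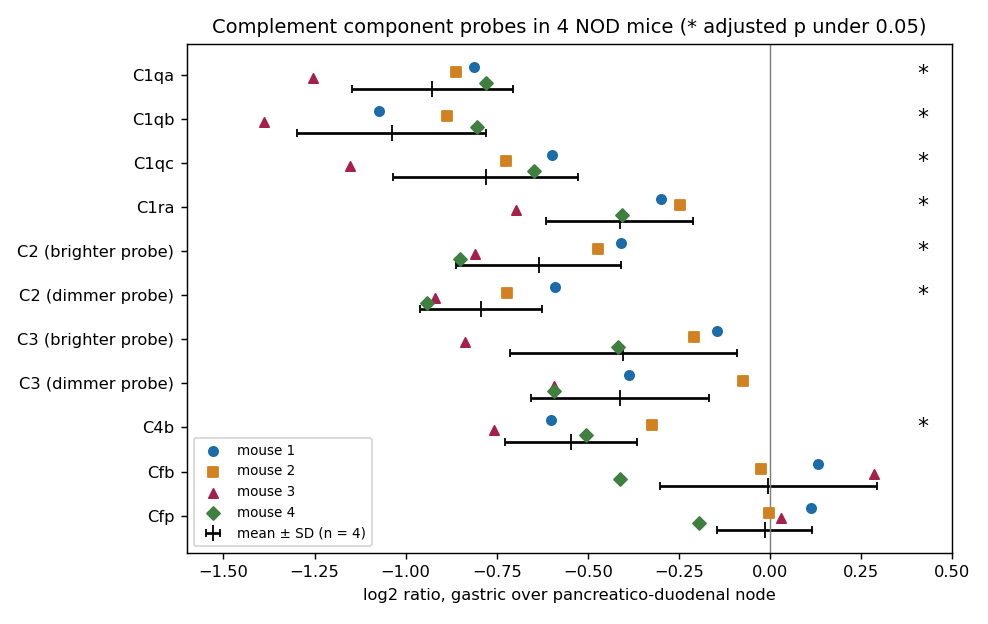
Log2 ratio of gastric over pancreatico-duodenal node (x axis) for each of the 11 probes (rows), with 1 symbol per mouse, the mean and SD over 4 mice as a bar, and an asterisk where the limma adjusted p was under 0.05. All points of the C1q genes, C1ra, C2, C3 and C4b lie left of 0, and those of Cfb and Cfp lie on both sides.

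The protease gene C1ra, whose product is attached to C1q, had log2 ratios of -0.30, -0.25, -0.70 and -0.41 in mice 1 to 4. Its log2 intensity was 11.29, 11.02, 10.79 and 11.21 in the gastric nodes, against 11.59, 11.27, 11.49 and 11.62 in the pancreatico-duodenal nodes. The nodes overlapped in level, because mouse 2 was low in its pancreatico-duodenal node, but within each mouse the gastric node was lower. The mean log2 ratio was -0.41 ± 0.20 (SD, n = 4; limma adjusted p = 0.0439). This was the weakest of the calls: it did not pass with the scanner software's own ratio (adjusted p = 0.0667). The C1q chain mean was lower than C1ra by -0.50 ± 0.11 on the log2 scale, in 4 of 4 mice (exact sign-flip p = 0.125, adjusted 0.136).

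C4b, which encodes the C4 protein cleaved by C1s, had log2 ratios of -0.60, -0.32, -0.76 and -0.50 in mice 1 to 4. The log2 intensity of C4b was 13.13, 13.11, 12.64 and 13.21 in the gastric nodes, against 13.73, 13.43, 13.39 and 13.71 in the pancreatico-duodenal nodes, with no overlap. The mean log2 ratio was -0.55 ± 0.18 (SD, n = 4; limma adjusted p = 0.0260). Mouse C4b has a near-identical neighbour, C4a, and whether the C4b probe separates them was not tested. The probe of C4a itself was dim and had a mean log2 ratio of -0.02 ± 0.08 (SD, n = 4; limma adjusted p = 0.763). That value moved with the processing, to -0.33 on the ratio of the scanner software (adjusted p = 0.217) and -0.25 with median centring, where it passed as lower.

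C2 encodes the protease partner of C4 in the enzyme that cleaves C3, and both of its probes passed. The brighter probe had log2 ratios of -0.41, -0.47, -0.81 and -0.85 in mice 1 to 4 and a mean of -0.64 ± 0.23 (SD, n = 4; limma adjusted p = 0.0262). The dimmer probe had -0.59, -0.72, -0.92 and -0.94, with a mean of -0.79 ± 0.17 (SD, n = 4; limma adjusted p = 0.0181). With loess the probes ordered the mice alike, and mouse 4 was the lowest on each, unlike in the C1q genes. With median centring the order differed between the probes. There the dimmer one was lowest in mouse 3 (-0.32, against -0.29 in mouse 4) and the brighter one in mouse 4 (-0.12, against -0.10 in mouse 3). On the brighter probe gastric node log2 intensities were 13.17, 12.97, 12.76 and 13.09, against 13.58, 13.44, 13.57 and 13.94 in the pancreatico-duodenal nodes. The gastric node of mouse 4 was within the range of the other gastric nodes, while its pancreatico-duodenal node was the highest of all. The dimmer probe read 11.52, 11.40, 11.11 and 11.40 in the gastric nodes, against 12.11, 12.12, 12.03 and 12.34 in the pancreatico-duodenal nodes. Neither C2 probe overlapped between the nodes.

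C3, the protein on which all routes converge, had a probe printed in 10 spots on each array and a single-spot probe. On the brighter, 10-spot probe the log2 ratio was -0.15, -0.21, -0.84 and -0.42 in mice 1 to 4. The SD between the 10 repeat spots of an array, which covers spotting only, was 0.02 to 0.03. Gastric node log2 intensities were 16.79, 16.72, 16.17 and 16.64, against 16.94, 16.93, 17.01 and 17.06 in the pancreatico-duodenal nodes. The nodes did not overlap, and the gastric node of mouse 3 was the lowest. The mean of -0.40 ± 0.31 (SD, n = 4) did not pass (limma adjusted p = 0.0894), nor did that of the dimmer probe at -0.41 ± 0.24 (adjusted p = 0.0570), whose values were -0.39, -0.08, -0.59 and -0.59. On that dimmer probe the log2 intensity was 9.15, 8.99, 8.47 and 8.94 in the gastric nodes, against 9.54, 9.06, 9.06 and 9.54 in the pancreatico-duodenal nodes, which overlapped. The 10-spot probe was brighter than 99.9% of tested probes. The 200 probes closest to it in brightness had a median log2 ratio of 0.11 and 28% of them passed as higher, whereas for the other members that median lay between -0.03 and 0.04.

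Cfb, the protease gene of the alternative pathway, lies directly beside C2 on chromosome 17 in the RefSeq gene order but did not share its direction in every mouse. Its log2 ratios were 0.13, -0.02, 0.29 and -0.41 in mice 1 to 4, with a mean of -0.0046 ± 0.299 (SD, n = 4; limma adjusted p = 0.983). Its log2 intensity was 14.18, 14.20, 14.18 and 13.78 in the gastric nodes, against 14.05, 14.22, 13.89 and 14.19 in the pancreatico-duodenal nodes. The gastric node of mouse 4 was the low one here, and mouse 3, the lowest for C1q, had the highest Cfb ratio. C2 minus Cfb was -0.63 ± 0.31 and below 0 in 4 of 4 mice (exact sign-flip p = 0.125, adjusted 0.136). The 95% interval of the Cfb log2 ratio, -0.29 to 0.28, leaves room for a difference of either sign.

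Cfp, the properdin gene, had log2 ratios of 0.11, -0.0027, 0.03 and -0.20 in mice 1 to 4. The log2 intensity of Cfp was 13.74, 13.66, 13.44 and 13.40 in the gastric nodes, against 13.63, 13.67, 13.41 and 13.59 in the pancreatico-duodenal nodes. Its mean of -0.01 ± 0.13 (SD, n = 4; limma adjusted p = 0.894) had a 95% interval from -0.17 to 0.14. The C1q chain mean was lower than Cfp by -0.90 ± 0.31 in 4 of 4 mice (exact sign-flip p = 0.125, adjusted 0.136). Against the brighter C2 probe the difference was -0.28 ± 0.26 and below 0 in only 3 of 4 mice (exact sign-flip p = 0.25, adjusted 0.25).

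**Figure D2:**
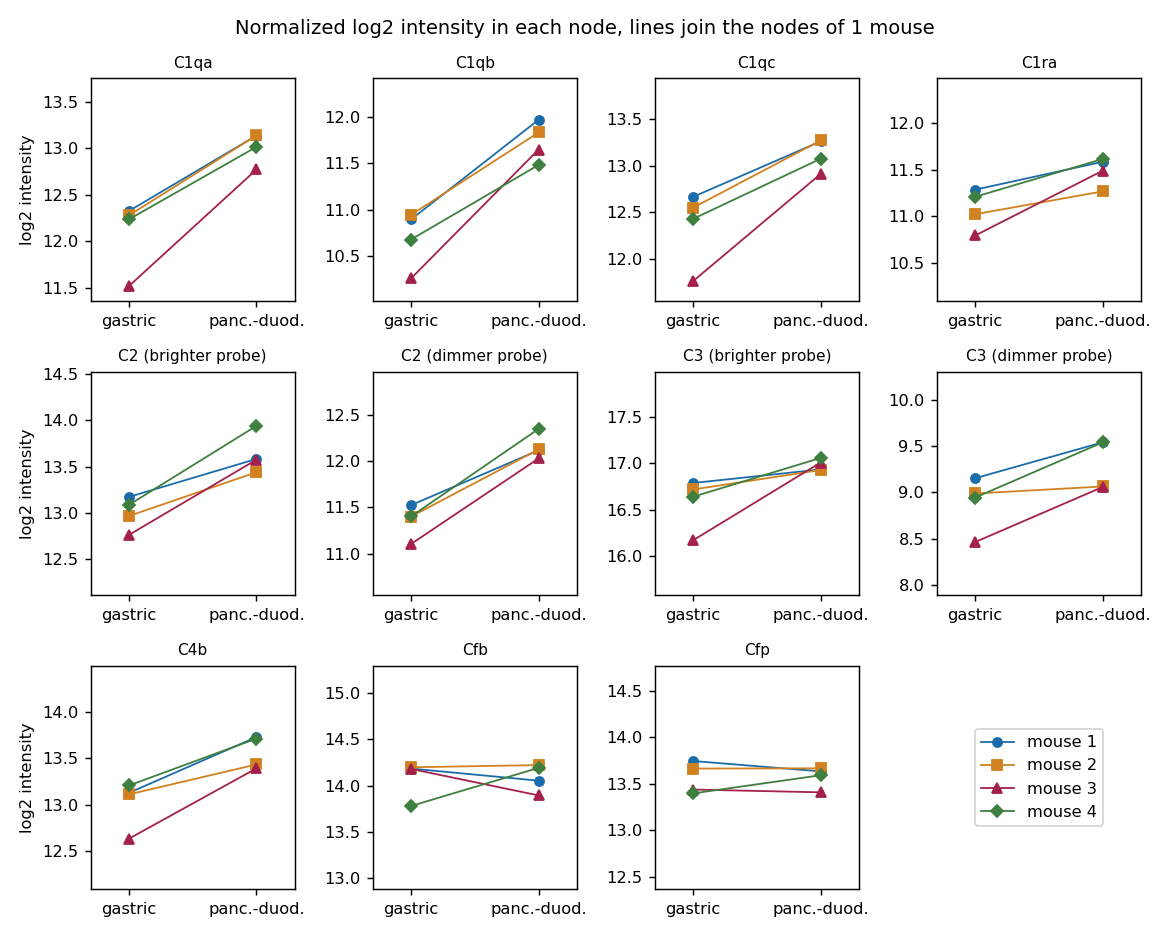
Normalized log2 intensity (y axis, each panel spans the same range) of each probe in the gastric node (left) and pancreatico-duodenal node (right), with lines joining the nodes of 1 mouse. For 7 of 11 probes every gastric node value lies below every pancreatico-duodenal node value, which held for 7.93% of all tested probes, and for none does every one lie above, which held for 8.24%.

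Across the set, 9 of 11 probes were below 0 in 4 of 4 mice, against 18.0% of all tested probes, and the exceptions were Cfb and Cfp. None was above 0 in 4 of 4 mice, against 22.8% of all tested probes. The median log2 ratio of the 9 genes, each by its brighter probe, was -0.55, against 0.0045 for all 13400 genes measured. By mouse the gene median was -0.41, -0.32, -0.81 and -0.50. With loess mouse 3 had the lowest ratio for the C1q genes, C1ra, C4b and the brighter C3 probe. The set's count rested on several mice: no member passed without mouse 2, mouse 3 or mouse 4, while 7 passed without mouse 1. At an unadjusted p under 0.05, 9 member probes passed without mouse 2, 9 without mouse 3 and 8 without mouse 4 (limma). Of all 27602 probes, 5580, 7363 and 5558 passed that threshold in these settings. Without mouse 3 the C1qb log2 ratio was -0.92 (limma adjusted p = 0.0643), and the number of calls among all probes was 0 without mouse 2, 5 without mouse 3 and 3 without mouse 4.

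The size of these ratios also rested on the correction for the dyes, which were not exchanged on any array, so dye and node cannot be told apart for any gene. Of 27602 probes, 1356 passed as lower and 824 as higher. When the arrays were only centred on their medians, with no loess, the median over the tested probes moved to 0.29, and 2858 passed as lower and 16108 as higher. There C1qb (-0.48), C1qa (-0.31) and the dimmer C2 probe (-0.22) still passed as lower, the brighter C3 probe (0.45), Cfb (0.69) and Cfp (0.65) passed as higher, and C1qc (-0.16), C1ra (0.14), C4b (0.10), the brighter C2 probe (0.0182) and the dimmer C3 probe (0.0205) did not pass. Relative to that median, 8 of 11 probes remained below it, with C1qb at -0.78, C1qa at -0.61 and C1qc at -0.45. The exceptions were the brighter C3 probe at 0.15, Cfb at 0.40 and Cfp at 0.36. With the scanner software's own dye normalization 6 of 11 passed as lower, beside 738 lower and 494 higher of all 27602 probes.

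**Figure D3:**
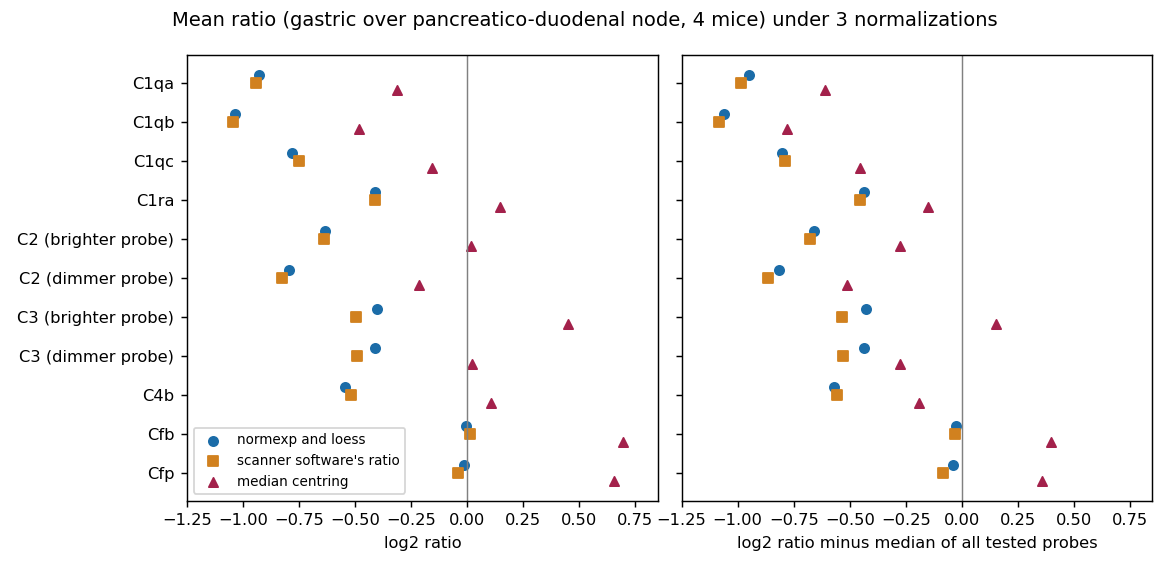
Mean log2 ratio of gastric over pancreatico-duodenal node over 4 mice for each probe under 3 normalizations, as measured (left) and after subtracting the median of all tested probes (right). Loess and the scanner software's ratio nearly coincide, and median centring moves every probe to the right while C1qb remains the lowest.

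Other genes that start the classical and lectin pathways were examined as a list of 13, of which 8 were above the filter on dim probes. By the brightest probe, 4 of the 8 were lower, none was higher and 4 did not pass; of all 13400 genes measured, 6.37% were lower and 2.42% higher. C1rb, a second C1r gene, was at -0.82 ± 0.10, with -0.75, -0.81, -0.96 and -0.75 in mice 1 to 4 (SD, n = 4; limma adjusted p = 0.0135). Fcna, which encodes ficolin A, a macrophage-made lectin that starts the lectin pathway, was at -0.81 ± 0.12, with -0.69, -0.78, -0.97 and -0.79 (limma adjusted p = 0.0171). Both varied less between mice than the C1q genes. C1s1, the protease that cleaves C4 and C2, was at -0.51 ± 0.28 (adjusted p = 0.0474; its further probe was at -0.71) and the dim C1s2 at -0.29 ± 0.06 (SD, n = 4). With median centring the C1s1 sign turned, and the gene did not pass on the ratio of the scanner software either, whereas C1rb, Fcna and C1s2 passed in both. C1ra and C1rb are close relatives, and whether their probes separate them was not tested. The mannose-binding lectin genes Mbl1 and Mbl2 were not well above background in enough arrays, nor were Fcnb, Masp1 and Colec10.

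Among regulators, 2 of 11 measured genes were lower and none was higher, against 6.37% and 2.42% of all 13400 genes. Serping1, which encodes the C1 inhibitor that removes C1r and C1s from C1q, was at -0.50 ± 0.17 (SD, n = 4; limma adjusted p = 0.0270). Cd59a, an inhibitor of the membrane attack complex, was at -0.49 ± 0.27 (adjusted p = 0.0483), and its further probe at -0.17 did not pass. With median centring the Serping1 sign turned, and neither gene passed on the ratio of the scanner software. C4bp, Cd59b and Csmd1 were not well above background in enough arrays.

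Among receptors and C1q-binding proteins 4 of 10 were lower and none was higher, against 6.37% and 2.42% of all 13400 genes. They were Lrp1, an endocytic receptor that takes up C1q-bound material, at -0.71 ± 0.28, the C5a receptor gene C5ar2 at -0.41 ± 0.16, Itgax, a subunit of complement receptor 4 and a dendritic cell gene, at -0.38 ± 0.15, and calreticulin (Calr) at -0.31 ± 0.08 (SD, n = 4; limma adjusted p from 0.0289 to 0.0353). With median centring Lrp1 kept its sign without passing, while C5ar2 and Itgax turned sign without passing and Calr passed as higher (0.30). Itgax and Calr did not pass on the ratio of the scanner software. Cr2, named after its values were seen, the receptor for C3 fragments on B cells and follicular dendritic cells, had a mean of 0.45 ± 0.41 and missed the threshold (limma adjusted p = 0.12). The macrophage receptor gene Vsig4 and C5ar1 were not well above background in enough arrays. None of the 3 measured terminal pathway genes passed, with C6 at -0.19 ± 0.28 and Hc, the C5 gene, at 0.05 ± 0.11 (SD, n = 4); C8a, C8b and C9 were not well above background in enough arrays. Of the C1q-binding pentraxins, Apcs at 0.10 ± 0.04 and Ptx3 at 0.01 ± 0.18 did not pass, and Crp was below the filter. Counts moved with the normalization: median centring gave 4 lower and 3 higher of 8 initiation genes, 1 lower and 4 higher of 11 regulators, 1 lower and 6 higher of 10 receptors, and 1 lower and 1 higher of 3 terminal pathway genes. Among all 27602 probes median centring gave 2858 lower and 16108 higher. The ratio of the scanner software gave 3, 0, 2 and 0 lower in these lists and none higher. Its counts among all 27602 probes were 738 lower and 494 higher. Without mouse 2, 3 or 4 no gene of the initiation, regulator or receptor lists passed.

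**Figure D4:**
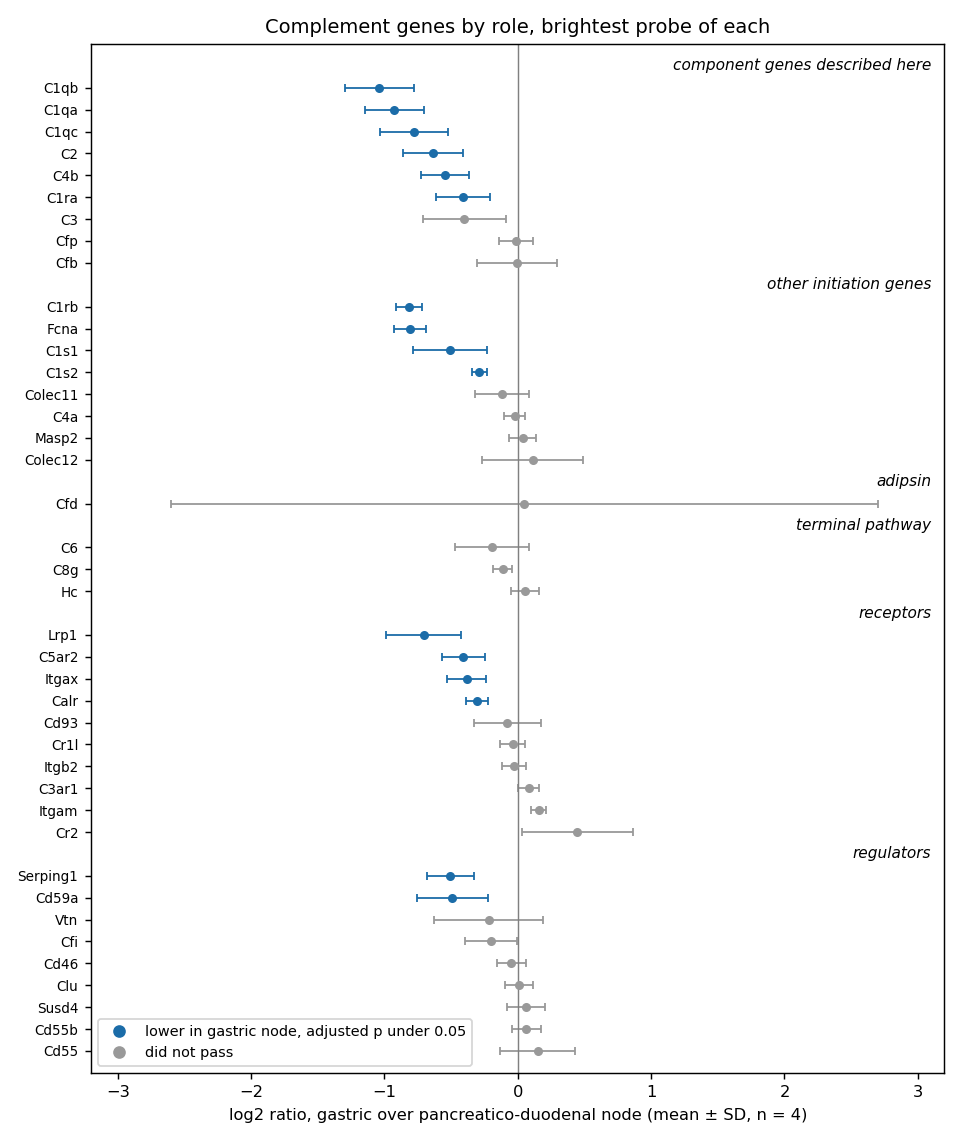
Mean log2 ratio of gastric over pancreatico-duodenal node with SD over 4 mice (x axis) for complement genes grouped by role, each by its brightest probe, with some of the regulators not drawn. Blue genes passed as lower (limma adjusted p under 0.05), grey ones did not pass, and none drawn passed as higher with loess. With median centring 3 of the 9 genes described here passed as higher. So did 3 initiation, 4 regulator, 6 receptor and 1 terminal pathway genes of the lists. In that setting 16108 of all 27602 probes passed as higher.

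Markers of cells that make complement proteins moved with the C1q genes in part. In bulk nodes, fewer cells of a type and less RNA per cell cannot be told apart. By the brightest probe 6.37% of all 13400 genes measured were lower and 2.42% higher. Of 19 measured macrophage genes, none of them a C1q gene, 4 were lower, 2 higher and 13 did not pass. The lower ones were Adgre1, the classical macrophage marker gene, at -1.36 ± 0.71, Cd163, which takes up haemoglobin complexes, at -1.26 ± 0.30, Csf1r at -0.43 ± 0.17 and Cd14 at -0.38 ± 0.12, and the higher ones were Folr2 at 0.74 ± 0.36 and Trem2 at 0.62 ± 0.32 (SD, n = 4). With median centring Cd14 turned sign and Csf1r passed as higher (0.19). On the ratio of the scanner software 1 macrophage gene, Cd163, was lower and 1, Folr2, was higher, while Adgre1, Csf1r, Cd14 and Trem2 missed the threshold (limma adjusted p from 0.0516 to 0.0701). That ratio gave 738 lower and 494 higher among all 27602 probes. The summed linear intensity of the list was 52054 to 82428 in the gastric nodes and 82396 to 116973 in the pancreatico-duodenal nodes, and none of the 19 genes was below the filter, unlike Vsig4 of the receptor list. The list median by mouse was -0.07, -0.30, -0.54 and -0.45. In mouse 1 the list median was -0.07 and the C1q chain mean was -0.83. The former summarises genes called in both directions and the latter the C1q genes alone, so these values are not like for like. Their difference was not tested. Marco, a scavenger receptor gene named after its values were seen, was at 0.05 in mouse 1 and -0.93, -1.13 and -1.39 in mice 2 to 4. It was among the 13 genes that did not pass and does not stand for the list.

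Dendritic cell genes had 5 of 10 lower and none higher, led by the retinoic acid enzyme gene Aldh1a2 at -1.69 ± 0.34, and a list median of -0.52, -0.39, -0.66 and -0.29 in mice 1 to 4. Their summed intensity was 13144 to 15511 in the gastric nodes, against 17591 to 21750 in the pancreatico-duodenal nodes. Fibroblastic stroma, a source of C1r, C1s, C3 and C4, had 5 of 13 lower and none higher, with medians of -0.12, -0.37, -0.57 and -0.54 in mice 1 to 4 and a summed intensity of 138232 to 197562 in the gastric nodes, against 160988 to 184969 in the pancreatico-duodenal nodes. Lymphatic endothelium had 4 of 6 lower and blood endothelium 4 of 9 lower, with none higher. Monocyte genes had 1 of 8 lower, Treml4 at -0.82 ± 0.25 (SD, n = 4), and list medians from -0.31 to 0.04. Their summed intensity was 22923 to 30038 in the gastric nodes, against 24119 to 28188 in the pancreatico-duodenal nodes. With median centring the counts were 2 lower and 6 higher for macrophage genes, 3 and 2 for dendritic cell genes, 2 and 4 for fibroblastic stroma, 1 and 2 for blood endothelium, 4 and 0 for lymphatic endothelium, and 1 and 7 for monocyte genes. Among all 27602 probes that setting gave 2858 lower and 16108 higher. The ratio of the scanner software gave 3 lower of 10 dendritic cell genes and 3 lower of 9 blood endothelium genes, with none higher in either. Its counts over all 27602 probes were 738 lower and 494 higher. The part of these cell types in the complement ratios was not tested.

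**Figure D5:**
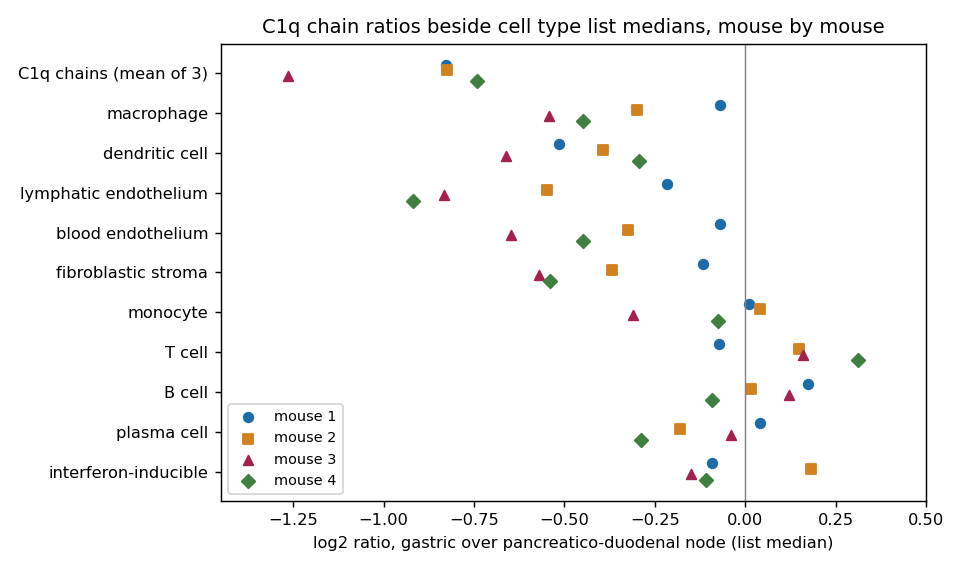
Mean log2 ratio of the 3 C1q chains (top row) and median log2 ratio of cell type lists (other rows) in each of the 4 mice. The C1q mean lies between -1.27 and -0.74 in every mouse, and the macrophage list median between -0.54 and -0.07.

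C2, C4b, C3 and Cfb are known to be inducible by interferons. A list of 17 genes held 16 that interferons induce and Ifng, which encodes an interferon. By the brightest probe none of the 16 passed, and Ifng was higher at 0.75 ± 0.28 (SD, n = 4). Of all 13400 genes measured, 6.37% were lower and 2.42% higher, so few calls would be found in any list this short. With median centring 10 of the 17 passed as higher, Ifng among them, beside 16108 of all 27602 tested probes. The list median was -0.09, 0.18, -0.15 and -0.11 in mice 1 to 4, against all genes at 0.0045 over the mice. Probes disagreed for some members: a dimmer probe of Irf1 (-0.36) and of Irf8 (-0.32) passed as lower, while the brightest probes of these genes did not pass. These were named after their values were seen. Of the genes of lymphocytes, which make up most of a node, none of 7 B cell genes passed and 1 of 8 T cell genes, Cd3g, was higher at 0.32 ± 0.14 (SD, n = 4). Cd3g did not pass on the ratio of the scanner software (limma adjusted p = 0.0744). With median centring 6 of 7 B cell genes and 8 of 8 T cell genes passed as higher, where 16108 of all 27602 probes did.

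Of 13188 other named genes, the 5 whose 4 log2 ratios lay closest to the C1q chain mean, by root mean square distance over the 4 arrays, were Adam8, Ms4a7, C1rb, Fcna and Gas6. Adam8, a membrane protease gene, had -0.82, -0.89, -1.39 and -0.74 in mice 1 to 4, at a distance of 0.0719. Ms4a7, a membrane protein gene of macrophages, had -0.71, -0.66, -1.13 and -0.77 (distance 0.123), and Gas6, the bridging ligand of the Mertk receptor, had -0.52, -0.88, -1.33 and -0.62 (distance 0.173). These distances are a description over 4 arrays.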

How the data were processed

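Both nodes of each of 4 mice were measured on 1 two-colour Agilent array per mouse, all on 1 slide. Per the file headers, the deposited scanner files made with Agilent Feature Extraction (version 10.2.1.3) hold mean and background intensity per spot, a processed intensity that the software had background-subtracted and dye-normalized, and a log10 ratio with Cy5 on top. A deposited series table gives a log2 ratio per probe, which equalled the mean log2 ratio of the processed signals over a probe's spots within 5.11e-05. Mice 1 to 4 had column medians of -0.15, -0.06, -0.03 and -0.03.

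Intensities were corrected with normexp (offset 50), normalized by loess within arrays in limma 3.58.1 (R 4.3.3), with control and outlier spots at weight 0, and spots of a probe were averaged. Probes well above background in 1 channel on at least 3 of 4 arrays were kept (27602). The mean log2 ratio of each probe was compared with 0 (lmFit, eBayes), with Benjamini-Hochberg adjustment over all kept probes. Node intensities are shown after Aquantile scaling of the loess-normalized arrays. Transcripts were named through RefSeq (GRCm38.p6); 24844 of 41174 probes had a symbol. The ratio pairs both nodes of a mouse, as the labels give 1 mouse per array. Deviations of the channels correlated at -0.02, 0.44, 0.35 and 0.63 in mice 1 to 4. Mouse and array cannot be told apart here, so these values do not separate a shared mouse from a shared array.

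The members and lists were chosen with earlier results of these data known. Named were all members, every called gene of the complement lists and up to 2 of the brightest where fewer than 2 were called, up to 3 genes of a cell type list (the largest calls, or else the brightest) and the 5 genes closest to the C1q mean. Where a count was 5 or fewer its genes may be named too; other names were chosen after values were seen, as stated beside them. A few genes of these lists are not reported here. The steps were tested on simulated data. Alternatives covered background correction, normalization, scaling, filter, probe choice, variance model, series table, pairing and each mouse left out.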

Additional observations from a re-analysis of the deposited data

Results flagged for a closer look

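Among the 4 mice, the C1qa log2 ratio of mouse 3, -1.26, stood apart from the others, which lay between -0.86 and -0.78: its gap to the nearest mouse was 0.830 of the whole range, just above Dixon's critical value. This was 1 of 34 sets of 4 values examined (11 probes and 23 gene lists), and chance marks about 1 in 20 such sets. In the same array the exocrine pancreas list median was -4.85; its part in the C1qa value was not tested. Without mouse 3 the C1qa log2 ratio was -0.82 (limma adjusted p = 0.0627), in a setting where 5 of all 27602 probes passed. Its unadjusted limma p was 2.33e-05 there and 5.47e-05 with all 4 mice.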

How the results depend on the processing

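Of 15 alternatives, 6 left the count of member probes called at 7, all lower. Without 1 mouse the count of member probes ranged from 0 to 7 and that of all probes, 2180 here, from 0 to 3052; at an unadjusted p under 0.05, 9 of 11 member probes and 5580 of all passed without mouse 2, where limma called 0. The C1qb ratio stayed between -1.12 and -0.48 over the alternatives. All probes called numbered 1232 with the ratio of the scanner software, 1232 with the authors' series table and 18966 with median centring. Treating the channels as separate samples, with no replicate block for the mouse, called 1237 probes in place of the paired 2180, and C1ra (adjusted p = 0.0760) and C4b (0.0519) no longer passed. Signs turned with median centring for C1ra (0.14), the C2 brighter probe (0.0182), the C3 probes (0.45 and 0.0205), C4b (0.10), Cfb (0.69) and Cfp (0.65). The Cfb mean, near 0, turned to 0.0107 on the ratio of the scanner software and in the series table, and ranged from -0.10 to 0.13 without 1 mouse each; Cfp ranged from -0.056 to 0.0463. C1ra also did not pass with the series table (adjusted p = 0.0667), and C1qc did not with median centring (0.173). The causes were not tested. With 1 feature per gene the second C2 and C3 probes have no value.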

Other observations

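The alternative pathway gene Cfd, outside the set, differed widely between mice in a way that no mean describes. It encodes factor D (adipsin), the protease that activates factor B and a product of adipocytes, and had log2 ratios of 2.74, -2.18, 1.92 and -2.28 in mice 1 to 4, so the gastric node was far higher in mice 1 and 3 and far lower in mice 2 and 4. The fat hormone gene Adipoq, named after its values were seen, had 2.44, -2.21, 0.69 and -1.86 in the same mice.

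Hepatocyte genes were near the limit of the arrays: Alb, Apoa1, Ttr, Apob and Fgb were below the filter in both nodes, and the 1 measured member of the list had a summed intensity of 76.7 to 93.0 in the gastric nodes and 75.7 to 89.8 in the pancreatico-duodenal nodes.

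Plasma cell genes had 2 of 7 lower, Tnfrsf17 at -0.33 ± 0.07 and Xbp1 at -0.28 ± 0.11, and follicular dendritic cell genes had 1 of 6 lower, Madcam1 at -0.25 ± 0.09 (SD, n = 4). Among all 13400 genes measured, 6.37% were lower and 2.42% higher. Xbp1 and Madcam1 did not pass on the ratio of the scanner software (limma adjusted p = 0.0726 and 0.0904). With median centring both passed as higher, at 0.26 and 0.28, and the lists had 1 lower and 6 higher plasma cell genes and 0 lower and 4 higher follicular dendritic cell genes. In that setting 2858 of all 27602 probes were lower and 16108 higher. None of 6 measured neutrophil genes passed with loess, although Retnlg passed as lower with median centring (-0.60) and on the ratio of the scanner software (-1.74), and Ngp, Camp, Ltf and Elane were below the filter.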
